A study of Mus musculus with 14 samples.

Results

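The regions whose accessibility changed in the first 2 h of GATA6 induction were taken from 4 ATAC-seq peak lists, 2 libraries of uninduced cells (0 h) and 2 libraries collected 2 h after doxycycline (Dox) was added. Peaks of the 4 lists that shared at least 1 bp were merged into 85186 regions. A region was called gained when both 2 h libraries and neither 0 h library had a peak in it, lost when the reverse held, and shared when all 4 libraries had one. By this rule 10948 of the 85186 regions (12.9%) were gained, 7976 (9.36%) were lost and 34341 were shared, and the remaining 31921 were called in another combination of libraries. The complete series holds 14 libraries over 7 time points, and the 10 libraries of 4 to 48 h took no part in forming the classes.

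All libraries came from KH2 mouse embryonic stem (ES) cells, strain C57BL/6 per the labels, with the transgene TRE:GATA6-DSREd2. According to the study's methods this is a single copy of a bidirectional Tet-responsive element that drives GATA6-FLAG, as its coding sequence alone, and the fluorescent protein DsRed2. The 0 h cells were kept without Dox in 2i medium, which holds LIF, the MEK inhibitor PD0325901 and CHIR9902, the label's name for the GSK3 inhibitor. The 2 h cells were in serum medium with LIF and 1 µg/mL Dox and without these inhibitors. Serum, inhibitor withdrawal and Dox thus began together, no library of serum medium without Dox was analysed here, and at 2 h their effects cannot be told apart. Each library came from 50000 cells of 1 line, and the study states in general that its replicates were independent, although the labels do not say at which step the 2 libraries of a time point were separated.

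In ATAC-seq, a transposase inserts adapters into DNA that is not wrapped in nucleosomes, so a peak marks accessible chromatin at promoters, enhancers and other regulatory elements. GATA6 is a zinc finger transcription factor of the primitive endoderm (PrE), the extraembryonic layer that the inner cell mass forms beside the epiblast, and it can bind its motif in closed chromatin. AP-1 is a dimer of FOS and JUN family proteins, made within minutes of growth factor and serum signalling through the ERK pathway that PD0325901 blocks. TCF and LEF proteins bind DNA for the Wnt pathway together with β-catenin, which GSK3 inhibition stabilises.

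The sequences below are the central 200 bases of the gained regions that ranked highest in both 2 h libraries, 4 of them more than 5 kb from a transcription start site (TSS) and 2 within 1 kb of one. They are shown because each holds at least 1 of the words that set the gained regions apart, a GATA word (AGATAA or AGATAG or TGATAA or TGATAG) or the AP-1 word TGACTCA. Each is the plus strand of GRCm38, and the capitals mark every GATA or AP-1 word on either strand. The first lies between genes, the next 3 lie in introns of the gene named, and the last 2 lie in the first kilobase around a TSS of the gene named.
Nfat5, chr8:107255151-107255350: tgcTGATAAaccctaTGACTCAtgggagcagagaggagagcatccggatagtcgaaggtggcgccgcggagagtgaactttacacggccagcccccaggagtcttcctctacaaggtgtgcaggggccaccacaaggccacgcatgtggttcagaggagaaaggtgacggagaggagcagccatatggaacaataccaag
Ahdc1, chr4:133071019-133071218: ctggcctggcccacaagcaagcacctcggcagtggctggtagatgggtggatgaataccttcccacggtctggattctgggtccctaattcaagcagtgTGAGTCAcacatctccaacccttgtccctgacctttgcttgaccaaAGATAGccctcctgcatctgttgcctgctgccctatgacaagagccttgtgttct
Lamc1, chr1:153300519-153300718: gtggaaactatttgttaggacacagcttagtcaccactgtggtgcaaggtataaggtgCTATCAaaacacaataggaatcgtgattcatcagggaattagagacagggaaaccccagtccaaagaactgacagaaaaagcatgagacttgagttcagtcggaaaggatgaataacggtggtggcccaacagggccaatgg
Tpx2, chr2:152869388-152869587: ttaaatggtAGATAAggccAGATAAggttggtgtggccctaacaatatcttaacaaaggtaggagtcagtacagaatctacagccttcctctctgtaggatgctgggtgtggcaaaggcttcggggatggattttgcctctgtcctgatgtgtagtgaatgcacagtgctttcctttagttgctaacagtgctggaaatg
Smurf1, chr5:144898679-144898878: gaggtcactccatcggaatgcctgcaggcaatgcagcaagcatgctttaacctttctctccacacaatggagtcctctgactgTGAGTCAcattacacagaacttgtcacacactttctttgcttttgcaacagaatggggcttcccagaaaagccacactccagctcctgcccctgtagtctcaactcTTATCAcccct
Tnnt3, chr7:142499204-142499403: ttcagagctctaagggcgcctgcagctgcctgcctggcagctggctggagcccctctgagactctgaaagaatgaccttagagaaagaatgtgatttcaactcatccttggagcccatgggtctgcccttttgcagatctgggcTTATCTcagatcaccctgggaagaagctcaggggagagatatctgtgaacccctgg

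The next 3 sequences come from the highest-ranked lost regions over 5 kb from a TSS that held the TCF word (ATCAAAG or TTCAAAG) in their central 200 bases, and are shown because this word was more frequent in lost regions. The capitals mark the TCF word on either strand. The region near Bmper is intergenic and the others are intronic.
Bmper, chr9:23045512-23045711: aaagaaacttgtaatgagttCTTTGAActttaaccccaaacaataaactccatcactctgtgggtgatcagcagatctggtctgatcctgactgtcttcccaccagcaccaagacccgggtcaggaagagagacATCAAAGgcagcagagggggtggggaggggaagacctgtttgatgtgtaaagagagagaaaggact
Pdia5, chr16:35484278-35484477: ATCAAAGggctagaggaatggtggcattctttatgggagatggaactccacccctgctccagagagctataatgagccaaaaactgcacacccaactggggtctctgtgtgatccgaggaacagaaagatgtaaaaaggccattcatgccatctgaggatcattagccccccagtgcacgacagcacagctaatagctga
Panx1, chr9:15023104-15023303: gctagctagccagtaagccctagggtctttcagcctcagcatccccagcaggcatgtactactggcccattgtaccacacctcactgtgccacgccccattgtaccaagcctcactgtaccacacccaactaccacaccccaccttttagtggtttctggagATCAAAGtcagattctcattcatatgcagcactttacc

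The 4 libraries were alike in size. The 0 h libraries had 56924 and 60483 peaks and the 2 h libraries 58322 and 61988, a difference of means of 1452 peaks that was smaller than the SD within either time point (exact two-sided permutation test p = 0.667, where 2 against 2 libraries cannot give a p below 1 in 3). Peaks covered 28.0 and 29.9 Mb at 0 h and 28.2 and 30.3 Mb at 2 h (p = 0.667, exact permutation test). Covered bases were shared more within a time point than across time points. The ratio of shared to all covered bases of a pair (Jaccard index) was 0.675 between the 0 h libraries and 0.679 between the 2 h libraries, against 0.483 to 0.499 for the 4 pairs across time points. The depth in reads is not known from peak lists, and a region without a peak was not called accessible at this depth, which does not show that it was closed. In these bulk samples a larger share of accessible cells and greater accessibility per cell cannot be told apart.

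The labelled cell type was checked on the promoters of marker genes. Of 8 ES cell identity markers, 7, 7, 6 and 7 had a peak within 1 kb of a TSS in the 0 h and then the 2 h libraries. Of 8 PrE markers 4 or 5 had one in each library, and of 10 trophectoderm genes 7 or 8 did. Only 1 of 8 markers of unrelated tissues did in any of the 4 libraries, the B cell factor gene Pax5. Accessible PrE and trophectoderm promoters were thus already present at 0 h. Promoter peaks were about as frequent among trophectoderm genes as among ES cell markers, so this check could not tell these cell types apart.

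The coding exons of Gata6 itself changed between 0 h and 2 h. Neither 0 h library had a peak over any of its 6 coding exons, whereas 2 h replicate 1 had a peak over 1 of them and 2 h replicate 2 over 4. One gained region of 1212 bp contained the whole 1117 bp of the first coding exon, which made up 92.2% of it. It ranked at percentiles 41.99 and 35.7 of the scores in the 2 h libraries. Both 4 h libraries and 8 h replicate 2 also had a peak over this exon and none of the 6 libraries of 16 to 48 h did. Because the transgene carries the Gata6 coding sequence, reads from the transgene and from the endogenous exons cannot be told apart in these peak lists.

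Gained and lost regions were both removed from promoters. Of the gained regions 16.6% lay within 5 kb of a TSS of a protein-coding transcript, against 19.5% of the lost and 43.4% of the shared regions. When each replicate number was compared on its own, that is 1 library of 2 h with 1 of 0 h, these shares were 20.1% ± 1.46, 22.6% ± 0.974 and 41.2% ± 0.193 (SD, n = 2 pairs), so gained and lost lay near each other and both were far from the shared regions. The median distance from the midpoint of a region to the nearest TSS was 23517 bp for gained, 22612 bp for lost and 8342 bp for shared regions. Only 536 gained and 619 lost regions lay within 1 kb of a TSS, compared with 11782 shared ones.

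**Figure D1:**
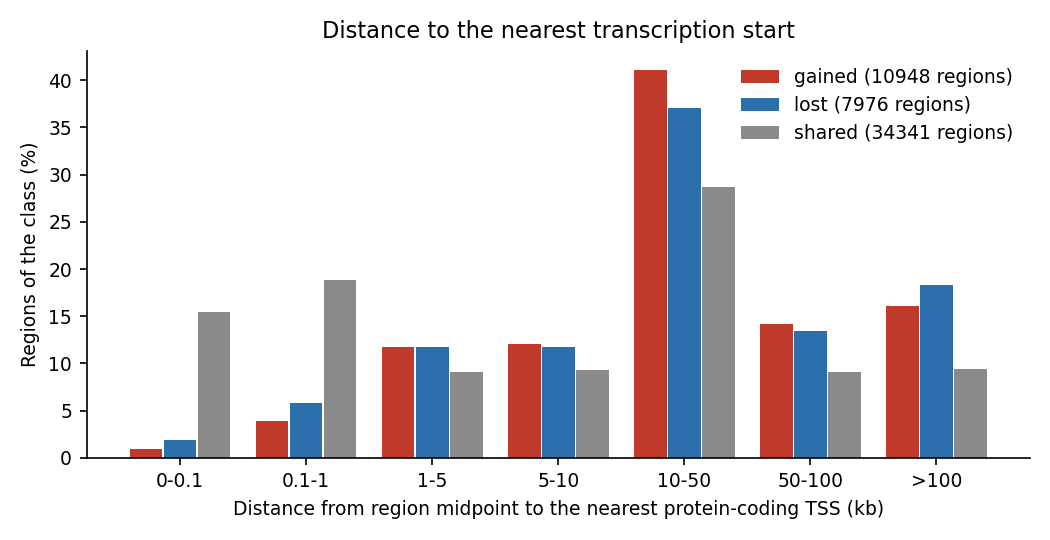
Share of the regions of each class (y axis, %) in bins of distance from the region's midpoint to the nearest protein-coding TSS (x axis, kb). Within 0.1 kb lie 15.4% of the shared regions but 0.950% of the gained and 1.93% of the lost ones, and between 10 and 50 kb lie 41.1%, 37.0% and 28.7% of gained, lost and shared regions.

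Introns held 46.2% of the gained and 45.2% of the lost regions, and intergenic sequence 46.6% and 43.4%. Seen from the TSS outwards, 1.503% of all regions within 0.1 kb of a TSS were gained and 2.23% were lost, and beyond 5 kb the gained share rose to between 14.2% and 16.3% and the lost share to between 10.1% and 13.4%. Gained regions were narrower than shared ones (median width 478 bp against 644 bp, lost 488 bp). They were rarely the flank of a peak that was already present, since the nearest peak of the 0 h libraries lay a median of 6162 bp away and within 1 kb for 15.3%. For lost regions the nearest 2 h peak lay a median of 5802 bp away and within 1 kb for 17.3%.

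Gained regions entered the 2 h lists in the middle of the score range, and lost regions had ranked lower at 0 h when all 4 libraries were used. The score of a peak was turned into its percentile within the library, from 0 for the lowest to 100 for the highest. The median percentile of gained regions was 40.5 and 44.2 in the 2 h libraries, that of lost regions 31.4 and 31.5 in the 0 h libraries, and that of shared regions 67.7 and 69.8 at 0 h and 64.7 and 66.9 at 2 h. Peaks above the 90th percentile of the scores made up 2.79% of gained regions, 0.276% of lost ones and between 16.2% and 16.9% of shared regions. Both classes ranked below the shared regions. The order of gained and lost changed with the number of libraries that had to call a region. Without 2 h replicate 1, where a gained region needed only 1 peak, the medians were 31.2 for gained and 32.8 for lost regions. Without 2 h replicate 2 they were 31.3 and 33.5. Without 0 h replicate 1, where a lost region needed only 1 peak, they were 41.9 and 21.6. Without 0 h replicate 2 they were 40.95 and 22.1. By peak width instead of score, with all 4 libraries, they were 47.4 and 45.99.

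The calls were repeatable across libraries to a degree that differed between the classes. Of the 14367 regions called in 2 h replicate 1 and in neither 0 h library, 76.2% were also called in 2 h replicate 2, and of the 16051 found with 2 h replicate 2, 68.2% were called in replicate 1. For losses the same shares were 64.5% of 12358 and 58.1% of 13736. Calling a change from fewer libraries raised the numbers. Without 0 h replicate 1 the lost regions numbered 13736 and without 0 h replicate 2 they numbered 12358, each over 1.5 times the 7976 found with all 4, because a lost region then needs a peak in only 1 library of 0 h.

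GATA and AP-1 words were the features that most set gained regions apart. A GATA word stood in the central 200 bp of 5200 gained regions (47.5%), against 17.1% of lost, 20.5% of shared and 25.6% of all merged regions. The AP-1 word stood in 4577 gained regions (41.8%), against 88 lost regions (1.10%), 5.73% of shared and 11.9% of all merged regions. In the comparisons within each replicate number the GATA word was in 41.6% and 42.8% of gained regions and the AP-1 word in 33.0% and 34.5%. The 2 pairs thus differed from each other far less than the classes did.

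**Figure D2:**
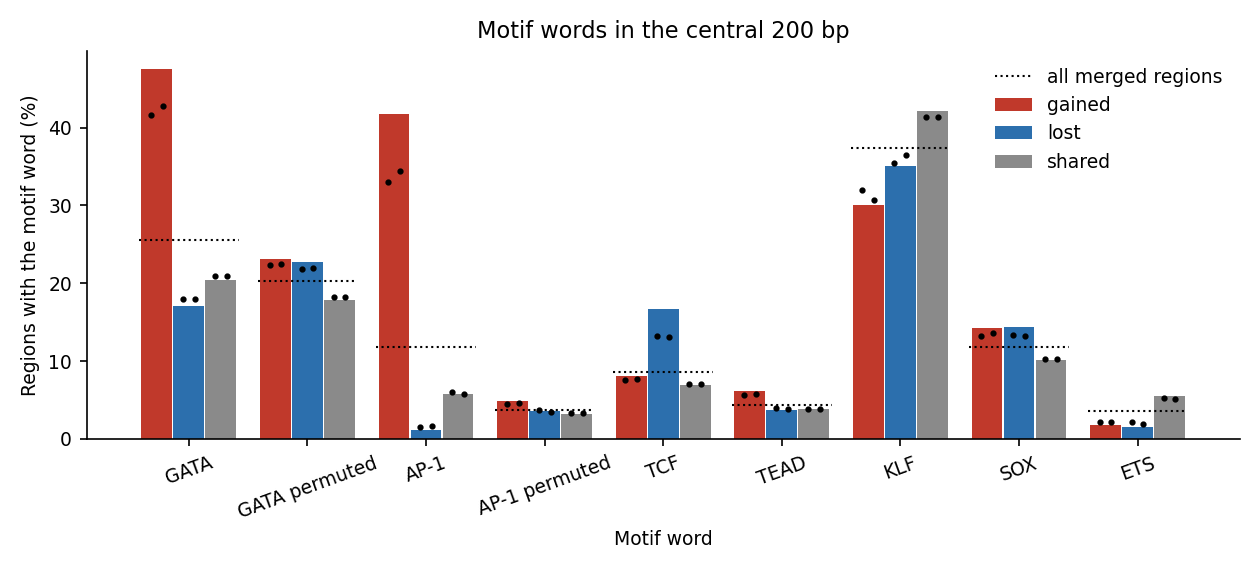
Share of gained, lost and shared regions (y axis, %) whose central 200 bp hold each motif word on either strand (x axis); bars give the classes formed from all 4 libraries, black points the 2 comparisons of 1 library with 1, and dotted lines the share over all merged regions. The GATA and AP-1 bars of gained regions and the TCF bar of lost regions stand above the dotted lines, and the permuted words do not separate gained from lost in this way.

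Words with the same letters in another order served as a background. The permuted GATA words (AAGTAA or AAGTAG or TAGTAA or TAGTAG) were in 23.2% of gained and 22.7% of lost regions, and the permuted AP-1 word TCAGTCA in 4.91% and 3.59%. In windows 1 kb to either side of the midpoint the GATA word was in 31.2%, 30.0% and 29.3% of gained, lost and shared regions and the AP-1 word in 3.63%, 3.79% and 3.37%, so away from the region the classes were nearly alike. The difference was also present where base composition was matched. Among regions with 45 to 55% G and C, the AP-1 word was in 44.8% of gained and 1.07% of lost regions, and the GATA word in 46.2% and 18.2%. In regions over 5 kb from a TSS the gained shares were 48.5% for GATA and 41.9% for AP-1.

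The words were concentrated at the midpoint. In gained regions GATA words reached 19.2 matches per 100 regions in the 50 bp bin just before the midpoint and were at 9.55 in the bin 450 to 500 bp before it, and AP-1 words went from 0.913 to 14.5 over the same bins. In lost regions AP-1 words fell from 0.702 to 0.226 matches per 100 regions towards the midpoint, and GATA words from 8.95 to 4.81. Lost regions thus held fewer GATA and AP-1 words at their centre than 500 bp away, in contrast to gained regions. In shared regions GATA words also fell over these bins, from 7.90 to 6.18 matches per 100 regions, whereas AP-1 words rose from 0.745 to 1.52.

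**Figure D3:**
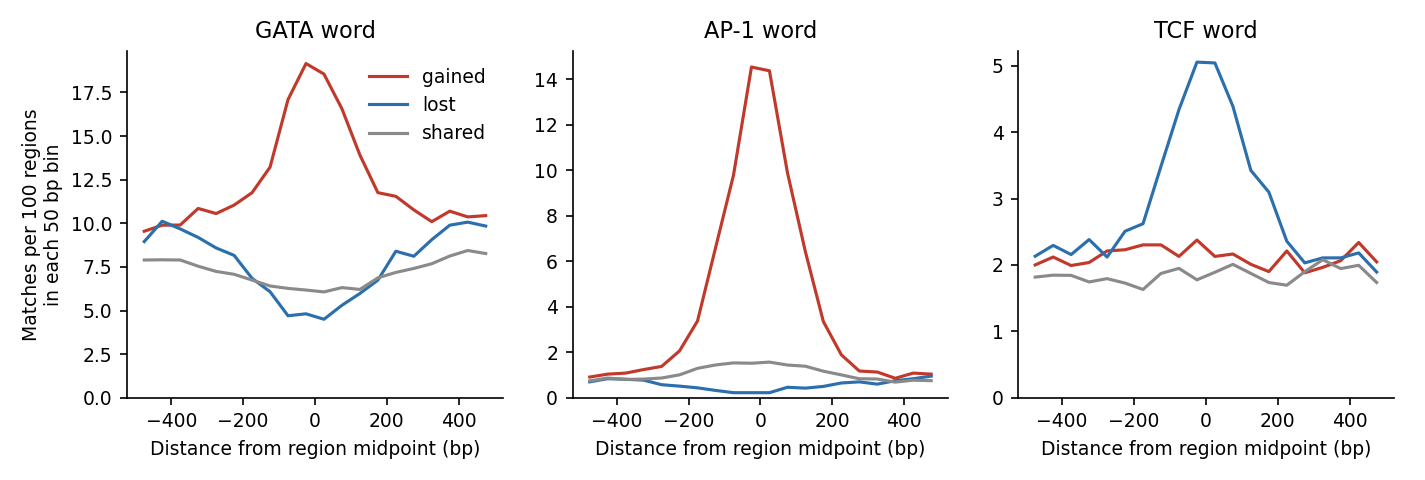
Matches of the GATA, AP-1 and TCF words per 100 regions (y axis) in 50 bp bins of distance from the region's midpoint (x axis, bp) for gained, lost and shared regions; y axes differ between panels and start at 0. GATA and AP-1 words of gained regions and TCF words of lost regions peak at the midpoint. GATA words of lost and, less strongly, of shared regions dip there.

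The TCF word was the counterpart in lost regions. It was in 1335 of them (16.7%), against 8.11% of gained, 6.99% of shared and 8.63% of all merged regions, and in 13.2% and 13.1% of lost regions in the 2 comparisons within a replicate number. At the midpoint of lost regions it reached 5.05 matches per 100 regions, against 2.13 at 450 to 500 bp before it. The share was higher in higher-ranked regions, from 12.5% for lost regions below percentile 10.9 to 23.9% for those above 39.99, the outer of 4 groups of equal size. The TEAD word CATTCCA, bound by the TEAD partners of YAP, was in 6.16% of gained regions, against 3.75% of lost and 3.83% of shared ones. Words of pluripotency factors differed less between gained and lost regions, since the SOX word ACAATG was in 14.3% and 14.4%, the OCT word ATGCAAAT in 2.30% and 3.59% and the ESRRB word TCAAGGTCA in 1.04% and 1.68%. The KLF word CCNCNCCC was in 30.0% of gained regions, against 35.1% of lost and 42.2% of shared ones, and beyond 5 kb from a TSS in 28.7%, 33.6% and 34.7%. CArG boxes, the SRF motif, were in 1.06% of gained regions, 1.03% of lost ones and 0.818% of shared ones.

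GATA and AP-1 words occurred together in gained regions slightly less often than if they had fallen independently. A GATA word without an AP-1 word was in 3436 gained regions (31.4%), an AP-1 word without a GATA word in 2813 (25.7%), both were in 1764 (16.1%) and neither was in 2935 (26.8%). Had the words fallen independently of each other, 19.9% would have held both. Several GATA words in 1 window were also more frequent, with at least 2 in 16.6% of gained regions, against 1.68% of lost and 3.25% of shared ones. Regions with both words ranked highest at 2 h, with median percentiles of 48.4 and 51.0 in the 2 libraries, followed by AP-1 alone with 43.5 and 47.5, GATA alone with 38.7 and 42.6 and neither with 35.6 and 39.7. This order was the same in both 2 h libraries.

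In the later libraries, which the rule did not use, gained regions were called less and less often. They were called in 70.6% ± 2.02 of cases at 4 h (SD, n = 2 libraries), 52.2% ± 0.523 by 8 h and 37.4% ± 2.03 by 16 h, and the share was 26.96% ± 0.607 in the 24 h and 21.5% ± 0.478 in the 48 h libraries. The share fell with time over the 10 libraries (Spearman's rho = -0.98, permutation test p = 2.0e-05, adjusted over 2 relations 4.0e-05, Pearson's r = -0.86, permutation p = 0.00203, adjusted 0.00406). The shuffles treat the 2 libraries of a time point as independent, which the labels do not settle, so these p-values may be too small. Leaving out the 2 libraries farthest from the median time, those of 48 h, r was -0.96. Lost regions were called in 16.9% ± 1.85 of cases at 4 h, 15.8% ± 0.417 by 8 h and 24.5% ± 1.96 by 16 h, and in 19.0% ± 0.789 and 14.2% ± 0.878 in the 24 h and 48 h libraries, with no relation to time that passed the test (rho = -0.17, permutation p = 0.649, adjusted 0.649, r = -0.29, permutation p = 0.434, adjusted 0.434). For these r changed sign to 0.48 without the 48 h libraries (permutation p = 0.232), so no direction can be given. Of the lost regions 4554 (57.1%) had no peak in any of the 10 later libraries, and 143 had one in all 10. Shared regions, as the reference, were also called less often with time, from 92.0% ± 0.622 at 4 h to 64.7% ± 0.807 at 48 h. Their relation with time was not tested.

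The later course of gained regions differed by motif word. Those with a GATA word alone were called in 83.9% ± 1.75 of cases at 4 h and 36.5% ± 0.700 at 48 h (n = 2 libraries each). Those with an AP-1 word alone were called in 59.3% ± 2.09 at 4 h, 32.3% ± 0.855 by 8 h and 14.6% ± 1.43 by 16 h, and in 8.43% ± 0.151 and 6.84% ± 0.327 in the 24 h and 48 h libraries. The share was higher for GATA alone in 10 of the 10 later libraries, by 24.4 to 47.1 percentage points, although regions with AP-1 alone had ranked higher at 2 h. Regions with both words began at 79.3% ± 1.88 near the GATA regions and ended at 15.3% ± 0.200. All 10 later libraries had a peak in 966 of the GATA regions (28.1%) but in 72 of the AP-1 regions (2.56%), and none of the 10 had one in 282 (8.21%) and 797 (28.3%). This split by word was chosen after earlier results were seen, so it is given as a description without a test.

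**Figure D4:**
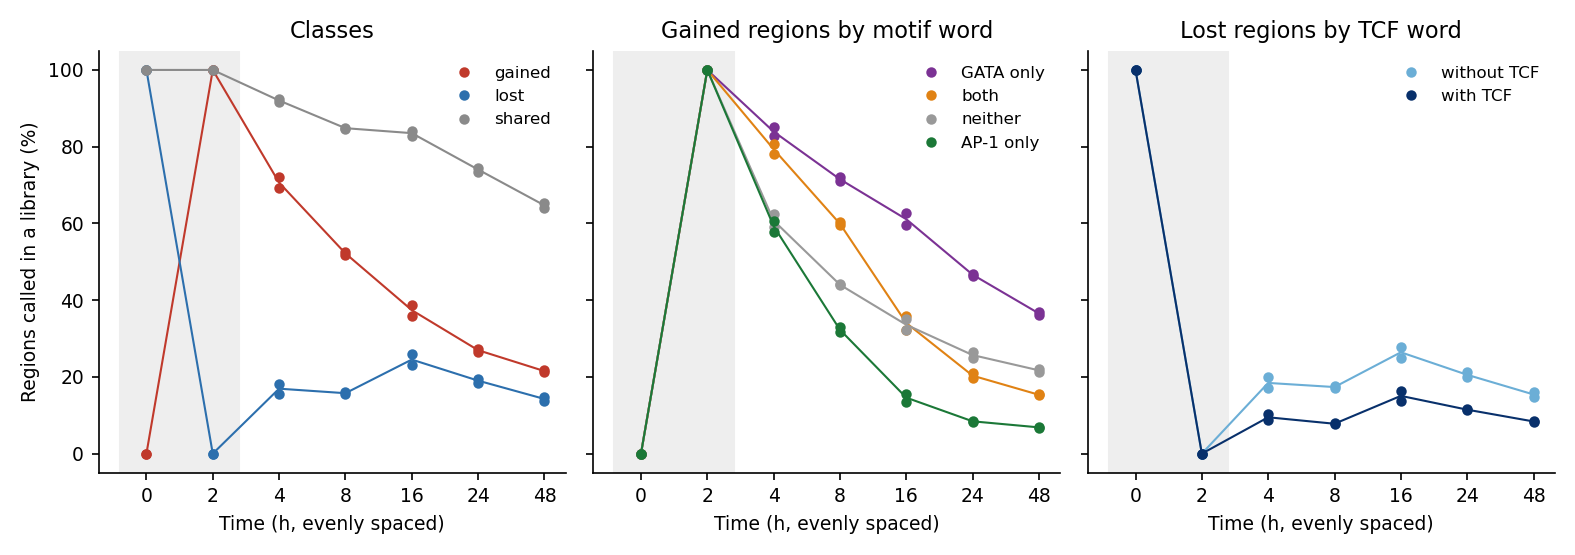
Share of regions with a peak in each of the 14 libraries (y axis, %) by time (x axis, evenly spaced time points in h) for the 3 classes, for gained regions by motif word and for lost regions with and without the TCF word; points are libraries, lines join the means and grey marks the 2 time points that define the classes. From 4 h on, gained regions with a GATA word alone lie above those with an AP-1 word alone in every library.

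Lost regions with the TCF word were called later less often than those without it. At 4 h the shares were 9.48% ± 1.11 and 18.4% ± 2.00, and at 48 h 8.39% ± 0.106 and 15.4% ± 1.03 (n = 2 libraries each). The share was lower with the word in 10 of the 10 libraries, by 6.38 to 11.5 percentage points, and 948 of the 1335 regions with it (71.0%) had no peak in any of them. This comparison too was chosen after the data were seen.

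Shared regions were compared by their percentiles, which depend on the other peaks in each list, so a shift is relative to the list and is not a change in signal. Shared regions over 5 kb from a TSS shifted by a median of -2.85 percentiles and those within 1 kb by -0.627. All ranks at 2 h lay above both ranks at 0 h in 7802 of the 34341 shared regions (22.7%), and below them in 11901 (34.7%). With a gap of more than 25 percentiles, 1416 regions were higher at 2 h and 1876 lower. Among those higher by this margin 40.04% had a GATA word and 30.2% an AP-1 word, and among those lower by it 17.1% and 1.17% did. The TCF word was in 8.55% of the higher and 15.0% of the lower regions. The 4 largest rises lay near Nlrp3, the inflammasome sensor, Atp8a1, a phospholipid flippase, Slc19a3, a thiamine transporter, and Agfg2. The region near Nlrp3 went from percentiles 2.55 and 1.07 to 95.7 and 94.8 and held both words. The one at the Atp8a1 promoter, with 3 GATA words, went from 4.54 and 2.97 to 95.3 and 94.6. The 4 largest falls had their nearest TSS at Mb, Klf3, Fopnl and Clnk. The region near Clnk, a signalling adaptor, fell from 89.7 and 92.4 to 12.6 and 2.96, held 2 TCF and 2 GATA words and had no peak in any later library.

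The highest-ranked gained promoters belonged to Smurf1, a ubiquitin ligase of the BMP pathway, Tnnt3, a muscle troponin, P3h4, which takes part in collagen modification, Col7a1, a collagen, Emp1, an epithelial membrane protein, and Lgi3. Their percentiles at 2 h lay between 89.5 and 97.2. The first 3 held a GATA word and had a peak in all 10 later libraries. The Emp1 promoter, with an AP-1 word and no GATA word, ranked at 90.8 and 92.9 and had a peak in 3 later libraries. The 6 highest-ranked gained regions over 5 kb from a TSS lay near Nfat5, the factor of the hypertonic response, Ahdc1, the basement membrane laminin gene Lamc1, the spindle protein gene Tpx2, the adhesion receptor gene Adgrl2 and the chromatin remodeller gene Chd9. All 6 held a GATA word and 3 also an AP-1 word. The regions near Tpx2 and Chd9, with 2 GATA words and no AP-1 word, had a peak in all 10 later libraries, and the region in Lamc1, with 1 GATA word, in 4. Among those with both words, the regions near Nfat5 and Adgrl2 had a peak in 8 and the region in Ahdc1 in 4.

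The highest-ranked lost promoters were those of Btla, an immune receptor, Nsg2, a neuronal endosomal protein, Klf8, a Krüppel-like factor, Cacng5, Specc1l and Aebp2, a partner of Polycomb complex 2. The Btla promoter ranked at 84.2 and 84.8 at 0 h, and 4 of the 6, Btla, Cacng5, Specc1l and Aebp2, had no peak in any later library. High-ranked lost regions over 5 kb from a TSS lay near Bmper, a BMP-binding secreted protein, Tspan18, Btg1, an inhibitor of proliferation, Pdia5, a protein disulfide isomerase, and Panx1, a channel protein. Their percentiles at 0 h lay between 93.7 and 98.1, and 3 of these 5 had no later peak. The region near Btg1 was called again in all 6 libraries of 16 to 48 h, and that in Panx1 in all 4 of 16 and 24 h.

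Each region was then given to the gene whose TSS was closest, up to 50 kb away, which covered 64725 regions and 16775 genes. Of these regions 11.8% were gained and 8.41% were lost, and each list of genes below is read against these shares. Gained regions fell to 5197 genes and lost regions to 4127, and 1847 genes had both. Etl4 had the most gained regions with 12, beside 6 lost. Plcb4, a phospholipase C, had 9 gained and 1 lost. Akap12, a kinase anchoring protein, Auts2, Dst, a cytoskeletal linker, and Pde4d, a cAMP phosphodiesterase, had 8 gained each, with 1, 0, 3 and 6 lost. Most lost regions, 6 each, were at Zfp704, Elmo1, Foxn3, Plekha7, Myo10, Etl4 and Pde4d. Genes with many regions also lie in wide loci with many peaks, 46 in all at Etl4 and 44 at Pde4d.

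Genes of the PrE had gained regions above the background share. For 8 PrE transcription factor and receptor genes, 9 of 44 regions (20.5%) were gained and 4 (9.09%) lost, and for 12 matrix and endocytic genes 19 of 96 (19.8%) and 9 (9.38%). Of the 9 gained regions 2 were at Gata6. They include the region over its first coding exon, where transgene and endogenous reads cannot be told apart. The study's PrE network, of which 577 genes were matched, had 389 gained among 2661 regions (14.6%) and 203 lost (7.63%). Its epiblast network, with 220 matched genes, had 185 of 1563 (11.8%) gained and 128 (8.19%) lost, near the shares of all regions. Both networks were defined on blastocyst cells and not on these libraries. In the comparisons within a replicate number the gained shares were 23.2% ± 0.239 and 19.2% ± 0.0905 (SD, n = 2 pairs) for the PrE and epiblast networks, beside 20.1% ± 0.433 for all regions.

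At Pdgfra, the PDGF receptor of the PrE, 2 of 7 regions were gained and 2 were lost. The gained region chr5:75137037-75137497, 15025 bp from the TSS, ranked at 70.6 and 80.1 at 2 h, held 3 GATA words and had a peak in 9 of 10 later libraries. The other gained one ranked at 1.97 and 31.3 and was called in all 10. At Lamc1, 4 of 20 regions were gained, of which 1 intronic region is shown above. The 2 intergenic ones, each with 2 GATA words, ranked between 76.4 and 86.6 and had a peak in all 10 later libraries. Sparc, a matrix glycoprotein, had 4 gained of 15, of which 3 held a GATA word, and all 3 gained of the 9 regions at Lrp2, an endocytic receptor, held one. The Lrp2 region with 3 GATA words ranked at 58.8 and 56.6 and was called in all 10 later libraries, and the other 2 ranked below 7. Lama1, a laminin chain gene, had 1 gained and 2 lost regions of 8, and the lost ones ranked at 68.6 and 69.3 and at 36.8 and 55.8 at 0 h. At Gata4, 1 low-ranked region (6.32 and 12.7) was gained. Sox17, with 3 regions, and Sox7, with 2, had neither gained nor lost regions.

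**Figure D5:**
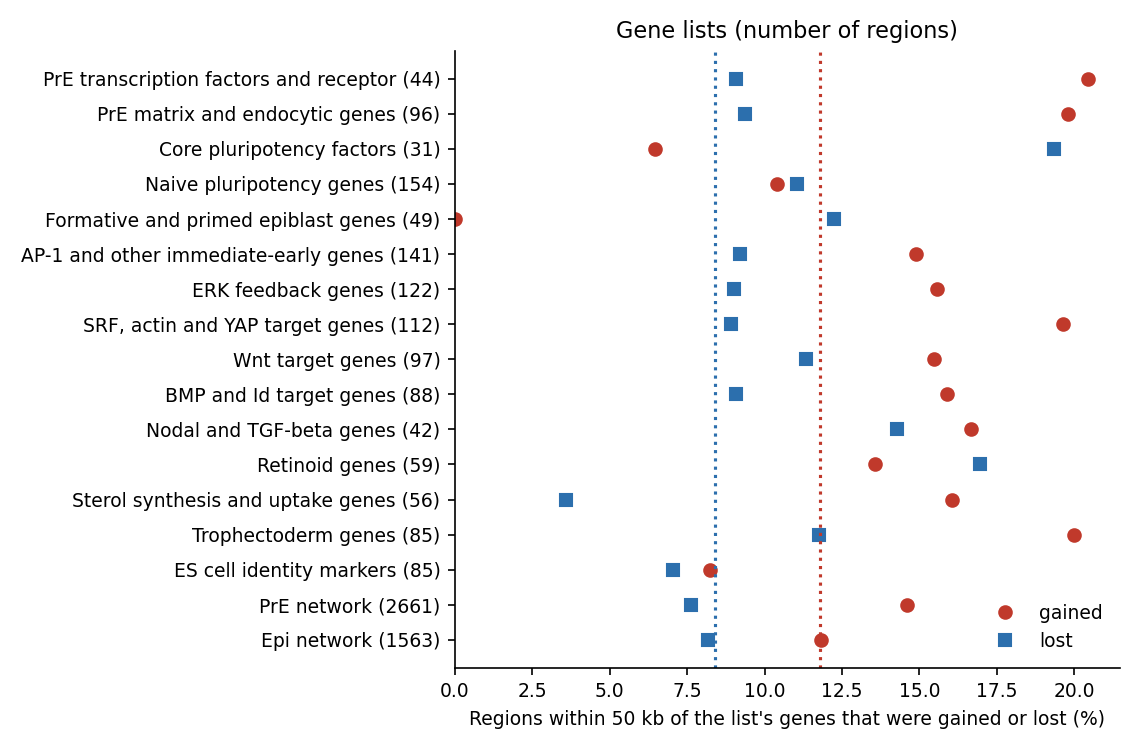
Share of the regions within 50 kb of a TSS of each list's genes that were gained (red circles) or lost (blue squares) (x axis, %), with the number of regions per list in brackets (y axis); dotted lines give the shares over all 64725 such regions, 11.8% gained and 8.41% lost. The 2 PrE lists, the SRF, actin and YAP list and the trophectoderm list lie at or near 20% gained, and the formative list at 0. The list of markers of unrelated tissues, with 8 regions, is not drawn.

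Lists of pluripotency genes differed from one another. For the 4 core factor genes 2 of 31 regions (6.45%) were gained and 6 (19.4%) lost, and for 10 formative and primed epiblast genes 0 of 49 were gained and 6 (12.2%) lost. At 1 library against 1 the formative share of gained regions was 11.2% ± 7.22 (n = 2 pairs), beside 20.1% ± 0.433 for all regions. The value of 0 thus rests on the demand for agreement of all 4 libraries, while the share lay below that of all regions either way. For 14 naive genes 16 of 154 (10.4%) were gained and 17 (11.04%) lost. The 8 ES cell identity markers had 7 of 85 regions gained (8.24%) and 6 lost (7.06%), beside 11.8% and 8.41% of all regions. At 1 library against 1 their shares were 13.5% ± 2.50 gained and 20.0% ± 4.99 lost (n = 2 pairs). All regions then had 20.1% ± 0.433 and 18.3% ± 0.246. The gained share of these markers was thus lower both ways, whereas the lost share was not. Of the 6 lost core factor regions 4 were at Sall4, which had 1 gained of 11, and with the 50000 highest-score peaks of each library 2 were lost there. At Pou5f1, the gene of OCT4, 1 of 5 regions was lost and 4 were shared, and its promoter ranked at 86.8 and 89.2 at 0 h and 96.7 and 96.8 at 2 h, without overlap. At Nanog a region 17721 bp from the TSS with an AP-1 word was gained at percentiles 69.9 and 70.3 and was called in 2 of 10 later libraries, those of 4 h. At Esrrb, an orphan nuclear receptor of naive cells, 3 of 27 regions were gained and 2 lost. The intronic gained region chr12:86480598-86481080 held 3 GATA words, ranked at 68.5 and 73.8 and was called in all 10 later libraries, while another with 1 GATA and 1 AP-1 word, at 84.3 and 84.9, was last called at 16 h. At Klf5 a region 32657 bp from the TSS ranked at 97.4 and 98.0, held a GATA word and was called in all 10. Klf4 had 1 gained and 1 lost region, and Sox2 had neither.

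Lists of immediate-early, ERK feedback and SRF, actin and YAP target genes had gained shares between 14.9% and 19.6%, against 11.8% of all regions. Other lists lay as high, such as trophectoderm genes with 20.0%, or lower, such as ES cell identity markers with 8.24%. The size of these differences was not tested. For 19 AP-1 and other immediate-early genes 21 of 141 regions (14.9%) were gained and 13 (9.22%) lost, for 11 ERK feedback genes 19 of 122 (15.6%) and 11 (9.02%), and for 19 SRF, actin and YAP target genes 22 of 112 (19.6%) and 10 (8.93%). Klf6, an immediate-early zinc finger factor, had 7 gained and 2 lost of 17. Its gained regions ranked between 43.4 and 98.3, 4 of them held a GATA word and 4 an AP-1 word. Dusp5, an ERK phosphatase, had 4 gained of 11, of which chr19:53554904-53555639 with an AP-1 word ranked at 91.0 and 91.7 and was called in 2 later libraries. At Myc both gained regions ranked between 74.9 and 86.1 and were called in the 4 h libraries alone. Vcl, which encodes the focal adhesion protein vinculin, had 5 gained and 0 lost of 11. Other members had more lost than gained regions, with 2 gained and 4 lost of 19 at Ier2, an immediate-early gene, 1 and 3 of 13 at Amotl2, a YAP regulator, and 1 and 2 of 7 at Flna, which encodes the actin crosslinker filamin A.

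Promoters of the immediate-early genes were already called at 0 h, and their ranks moved both ways. Of 19 shared promoter regions of this list 8 ranked higher in both 2 h libraries than in both 0 h libraries and 5 ranked lower, beside 17.4% and 27% of the 11782 shared regions within 1 kb of a TSS. For the ERK feedback genes 4 of 7 ranked higher and 1 lower, and for the naive genes 0 of 8 higher and 5 lower. The counts are small and were read without a test.

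Among 14 Wnt target genes 15 of 97 regions (15.5%) were gained and 11 (11.3%) lost. Of the 11 lost regions 4 held the TCF word, against 15.7% of all lost regions within 50 kb of a TSS. This was not particular to the Wnt list. Among lost regions of the ERK feedback genes 5 of 11 held the word, and among those of the retinoid genes 0 of 10. Both lost regions of T, the gene of the mesoderm factor Brachyury, held the TCF word, 1 of them at its promoter with percentiles of 25.8 and 53.4 at 0 h, and neither had a peak in any later library. At Axin2, a negative regulator of the Wnt pathway, the lost region chr11:108961460-108962084 ranked at 40.4 and 59.0, held 2 TCF words and was not called later. The other lost region of Axin2 and the lost region of Lef1, a TCF family factor, held no TCF word and were called in 3 and 5 later libraries. Tcf7 had 3 gained and 0 lost of 10. For BMP and Id target genes 14 of 88 regions (15.9%) were gained and 8 (9.09%) lost. For Nodal and TGF-beta genes 7 of 42 (16.7%) were gained and 6 (14.3%) lost. For sterol genes these were 9 of 56 (16.1%) and 2 (3.57%), and for retinoid genes 8 of 59 (13.6%) and 10 (16.9%). The trophectoderm genes had 17 of 85 (20.0%) gained, as high as the PrE lists, and 10 (11.8%) lost. At Tead4, 5 of 23 regions were gained and 3 lost. Markers of unrelated tissues had 8 regions in all, of which 2 (25%) were gained and 0 lost, beside 11.8% and 8.41% of all regions.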

How the data were processed

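ATAC-seq peak lists of 14 libraries were used, 1 per library, of which the 4 of 0 h and 2 h formed the classes. The deposited values were the score that the authors' peak caller gave each peak, whose scale is not stated in the sources used here. Per the file names the authors kept peaks that passed the irreproducible discovery rate between pseudoreplicates of each library and a blacklist filter, without pooling replicates. The study's methods state that the authors ran the ENCODE ATAC-seq pipeline, whose aligner and settings for these libraries are not given in the sources used here, and the submitters' processing notes name mm10, GRCm38 and deepTools. The lists hold no reads, so the depth per library is unknown and no counting interval can be given.

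Peaks were merged at an overlap of 1 bp and scores were turned into percentiles within each library. Distances were measured from a region's midpoint to protein-coding TSSs of GENCODE M21 on GRCm38, and each region was given to the gene of its closest TSS up to 50 kb away. Motif words were sought on both strands in the central 200 bp. Symbols of the study's networks were matched through RefSeq synonyms, 577 of 579 for the PrE and 220 of 221 for the epiblast network. Single values were compared with exact two-sided permutation tests over libraries, and relations with time with 100000 permutations. The class calls, the motif search and the test of relations were tried on simulated data, and the exact test was not. Leading regions were those with the highest lower percentile of the libraries that define the class, 6 within 1 kb and 6 over 5 kb from a TSS, and the 4 shared regions with the largest rise and fall, and genes were named as up to 4 of each list with the most gained plus lost regions, the 8 genes with the most gained and the 8 with the most lost regions, and always Gata6, Gata4, Sox17, Sox7, Pdgfra, Nanog, Pou5f1, Sox2, Klf4 and Esrrb. One of these items is not reported here. The members and gene lists were chosen with earlier results of these data known, and the TCF word and the split of later calls by motif word were chosen after seeing the data. Alternatives changed the number of peaks, the merging, the calls, the distances, the motif window and the libraries. Python 3.11.15, numpy 2.4.6, pandas 2.3.3 and scipy 1.17.1 were used.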

Additional observations from a re-analysis of the deposited data

How the results depend on the processing

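The excess of GATA and AP-1 words in gained over lost regions, and of TCF words in lost over gained regions, kept its direction under every alternative run. With the 50000 highest-score peaks of each library, the GATA share was 17.3% (lost) and 20.03% (shared), the AP-1 share was 1.41% (lost), the KLF share was 42.9% (shared). In this setting, the TCF share was 16.5% (lost), the share near a TSS was 45.1% (shared), the median percentile was 52.1 (gained at 2 h) and 41.5 (lost at 0 h) and 70.03 (shared at 2 h) and 72.6 (shared at 0 h). In this setting, PrE network regions were 15.3% gained and 8.52% lost, epiblast network regions were 12.3% gained and 11.1% lost, the covered length turned to -0.278 Mb (exact permutation p = 0.667). In this setting, rho of lost regions with time turned to 0.59 (permutation p = 0.0837), GATA alone exceeded AP-1 alone by 34.7 points. With the replicate number as a block, the GATA share was 42.2% (gained) and 17.95% (lost) and 20.9% (shared), the AP-1 share was 33.7% (gained) and 1.59% (lost) and 5.90% (shared), the KLF share was 31.3% (gained) and 35.98% (lost) and 41.3% (shared). In this setting, the TCF share was 13.2% (lost), the share near a TSS was 20.1% (gained) and 22.6% (lost) and 41.2% (shared), the median percentile was 30.7 (gained at 2 h) and 24.04 (lost at 0 h) and 60.2 (shared at 2 h) and 63.5 (shared at 0 h). In this setting, PrE network regions were 23.2% gained and 16.7% lost, epiblast network regions were 19.2% gained and 17.3% lost, 18159.5 regions were gained. In this setting, 16653.5 regions were lost, GATA alone exceeded AP-1 alone by 33.7 points. The replicate numbers did not pair the samples, since deviations of same-numbered libraries correlated at 0.000581 for calls and 0.00659 for percentiles, so this block has no standing in the design, and p for the difference in peak number was 0.5 (exact permutation test). With a call in at least 1 library of a time point, 19470 regions were gained, 18118 regions were lost. Within 1 kb of a TSS instead of 5 kb, the share near a TSS was 4.90% (gained) and 7.76% (lost) and 34.3% (shared). With 1 TSS per gene, the share near a TSS was 11.9% (gained) and 14.3% (lost) and 37.7% (shared), epiblast network regions were 11.7% gained. Where motifs were counted over all of a region, the GATA share was 69.6% (gained) and 41.2% (lost) and 51.1% (shared), the AP-1 share was 59.3% (gained) and 4.20% (lost) and 15.3% (shared), the KLF share was 53.1% (gained) and 58.5% (lost) and 71.7% (shared). In this setting, the TCF share was 29.4% (lost), GATA alone exceeded AP-1 alone by 38.1 points. In regions over 5 kb from a TSS alone, the GATA share was 48.5% (gained) and 17.6% (lost) and 26.5% (shared), the AP-1 share was 7.56% (shared), the KLF share was 28.7% (gained) and 33.6% (lost) and 34.7% (shared). In this setting, the TCF share was 17.6% (lost). With peaks within 100 bp merged, the GATA share was 17.3% (lost) and 20.5% (shared), the AP-1 share was 1.06% (lost), the KLF share was 41.5% (shared). In this setting, the TCF share was 17.1% (lost), the share near a TSS was 17.7% (lost) and 42.5% (shared), the median percentile was 42.8 (gained at 2 h) and 66.4 (shared at 2 h) and 69.3 (shared at 0 h). In this setting, PrE network regions were 14.99% gained, epiblast network regions were 12.01% gained, GATA alone exceeded AP-1 alone by 35.9 points. Where peaks had to cover at least 50% of a region, the GATA share was 16.7% (lost) and 20.6% (shared), the AP-1 share was 1.19% (lost), the KLF share was 42.7% (shared). In this setting, the TCF share was 16.3% (lost), the median percentile was 43.6 (gained at 2 h) and 33.8 (lost at 0 h) and 67.8 (shared at 2 h) and 70.7 (shared at 0 h), PrE network regions were 14.96% gained and 8.53% lost. In this setting, epiblast network regions were 12.5% gained and 8.77% lost, GATA alone exceeded AP-1 alone by 35.1 points. With percentiles of peak width, the median percentile was 47.4 (gained at 2 h) and 45.99 (lost at 0 h) and 60.4 (shared at 2 h) and 60.7 (shared at 0 h). Without the 48 h libraries, rho of lost regions with time turned to 0.63 (permutation p = 0.111), GATA alone exceeded AP-1 alone by 37.1 points. With the nearest TSS within 10 kb, PrE network regions were 10.6% gained and 5.38% lost, epiblast network regions were 9.37% gained and 7.15% lost. Leaving out 1 library at a time gave -381.5 to 3284.5 for peak number, 2 h against 0 h, -0.702 to 1.41 Mb for covered length, 2 h against 0 h, 17.4 to 19.4% for gained regions within 5 kb of a TSS, 43.8 to 45.5% for GATA motif share of gained regions. The range was 36.3 to 38.4% for AP-1 motif share of gained regions, 30.3 to 31.6% for KLF motif share of gained regions, 10120 to 13736 for lost regions at 2 h, 20.1 to 22.2% for lost regions within 5 kb of a TSS. The range was 17.3 to 17.7% for GATA motif share of lost regions, 1.28 to 1.47% for AP-1 motif share of lost regions, 35.2 to 36.5% for KLF motif share of lost regions, 14.2 to 15.1% for TCF motif share of lost regions. The range was 41.96 to 42.6% for shared regions within 5 kb of a TSS, 20.3 to 21.01% for GATA motif share of shared regions, 5.42 to 6.22% for AP-1 motif share of shared regions, 41.7 to 41.9% for KLF motif share of shared regions. The range was 31.2 to 41.9 for median score percentile of gained regions at 2 h and 21.6 to 33.5 for that of lost regions at 0 h. For the median score percentile of shared regions it was 62.2 to 64.7 at 2 h and 65.9 to 67.3 at 0 h. The range was -0.47 to 0.32 for lost regions called later, as rho with time, 34.4 to 34.7 for GATA only minus AP-1 only, gained regions called later, 13.6 to 16.8% for Epi network regions called gained, 10.2 to 14.5% for Epi network regions called lost. The range was 16.8 to 20.5% for PrE network regions called gained, 9.66 to 14.2% for PrE network regions called lost. Over all regions with a gene, the gained and lost shares to set beside those of the networks were 12.2% and 10.01% with 50000 peaks, 20.1% and 18.3% with the block, 12.5% and 9.17% with 50% covered, 8.79% and 6.97% within 10 kb, and 13.7% to 17.5% and 10.8% to 15.03% with 1 library left out. The PrE network lay above these gained shares and below these lost shares in each of these settings. The order of gained above lost regions in median percentile turned without either 2 h library (31.2 against 32.8 and 31.3 against 33.5). The difference in peak number was not run with a fixed number of peaks. Of the other values, nearly all of them counts of gained or lost regions at a named gene, 459 stayed within 1.5 times the reported count and 161 did not under the alternatives that kept all libraries, and 499 and 117 did so when 1 library was left out, with TCF shares judged against the SD between pairs instead. Gained regions made up 57.9% of gained and lost regions together, and 47.9% without 0 h replicate 1 and 61.3% without 2 h replicate 1. With 1 library left out, a peak in the remaining library of that time point was enough, as stated above for lost regions. Other causes of these shifts were not tested. Depth limits every call, because the peak lists hold no reads.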
